A study of Rattus norvegicus with 6 samples.

Results

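The cytochrome P450 enzymes of families 1, 2 and 3, which carry out most oxidation of drugs and other foreign compounds in the liver, were examined in rat liver after 2 kinds of terminal anaesthesia. Members were all non-control array probes whose accession maps to a rat gene symbol that starts with Cyp1, Cyp2 or Cyp3 followed by a subfamily letter. This gave 67 of 61657 probes and 38 of the 15284 genes that could be named, in 14 subfamilies. A further 22 symbols of this form in the RefSeq annotation had no probe matched to them and were not analysed here; they include Cyp2c24, Cyp2c55, Cyp2u1 and Cyp2w1.

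The livers came from 6 male Sprague-Dawley rats (Crl:CD(SD), an outbred stock) aged 9 weeks. All 6 had received corn oil, a vehicle, at 5 mL/kg/day. Of these, 3 were killed after CO2/O2 anaesthesia, a gas mixture that renders rodents unconscious, and 3 after isoflurane, an inhaled anaesthetic. Each rat's RNA was hybridised to its own 1-colour Agilent array, so n = 3 rats per group. The labels disagree on how long the oil was given, at 3 days in the design text and 9 weeks in the treatment protocol. Without an unanaesthetised group, neither agent can be named as the one behind a difference. All rats were male, which matters for several of these genes, and no female liver was measured.

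P450 enzymes are haem proteins of the endoplasmic reticulum that receive electrons from NADPH-cytochrome P450 reductase and, for some substrates, from cytochrome b5. Members of families 1, 2b and 3a are known for induction by foreign compounds through the Ah receptor, the constitutive androstane receptor (CAR) and the pregnane X receptor (PXR). In rat liver another group, mostly in 2a, 2c and 3a, is known for sex-dependent expression that follows the pattern of growth hormone secretion. Cyp2e1 oxidises small molecules such as ethanol, and is known to metabolise volatile anaesthetics, isoflurane among them.

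Expression is given as log2 of the processed intensity relative to the array's 75th percentile, so 0 is that percentile and 1 unit is a 2-fold step. Values of different probes are on different scales and only the same probe is compared across rats. Differences are isoflurane minus CO2/O2, from limma fitted over all tested probes, with Benjamini-Hochberg adjustment over 34637 probes and a threshold of 0.05. Per array, 53.4% to 62.3% of probes were well above background, intensity at the 75th percentile was 912.5 to 998.3, and saturated spots numbered 0. The 7 hepatocyte markers (Alb, Apoa1, Ttr and others) were above background on all 6 arrays, with a median difference of 0.03. The 7 Kupffer cell markers were all lower after isoflurane, with a median difference of -0.40. The mean of their log2 values was 2.45 to 2.91 in CO2/O2 rats and 2.23 to 2.34 in isoflurane rats. The 3 red cell markers were also all lower, with a median of -0.37. In whole liver, fewer cells of a type and less RNA per cell cannot be told apart. The part of either marker list in the P450 values was not tested.

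Of the 38 genes, 33 were tested, and all 33 had a probe above background on all 6 arrays. Genes without a probe above background in all 3 rats of either group were not tested. The 5 genes that were not tested were Cyp1a1, Cyp1b1, Cyp2a3, Cyp2g1 and Cyp2j10. The first 4 were not well above background on any array. They are known from tissues other than uninduced liver: Cyp1a1 is induced by polycyclic aromatic compounds, and Cyp2a3 and Cyp2g1 are enzymes of the nasal mucosa. Cyp2j10 was above background on 1 array, that of CO2/O2 rat 3. Every gene of subfamilies 2b, 2c, 2d and 3a that had a probe was tested, and 56 of the 67 member probes were above background on all 6 arrays.

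No P450 gene passed the test between the kinds of anaesthesia. In limma, 0 of 33 member genes reached an adjusted p of 0.05, with a smallest adjusted p of 0.614 (Cyp2b2), and the same call was made for 0% of all 10609 tested genes. Among the 57 tested member probes the count was also 0, against 0.00866% of all probes. Before adjustment, 3 member genes had a p under 0.05, or 9.09%, against 7.58% of all genes. These were Cyp2b2, Cyp2b12 and Cyp3a18, all with positive differences, whereas 2.72% of all genes had such a p with a positive and 4.85% with a negative difference. Cyp2b2 and Cyp2b12 are of the same subfamily. Transcripts of close paralogs can share array signal, so both may not count separately. The groups did not overlap for 3 genes (Cyp2b2, Cyp2d4 and Cyp3a18), or 9.09%, against 14.2% of all genes. All 3 had the higher values after isoflurane, as did 6.01% of all genes, with 8.16% in the other direction. Over both directions together, the members' shares lie near or below those of all genes. Counting by sign alone, 18 genes had a positive and 15 a negative difference, with a median of 0.03 against -0.01 over all genes. When arrays were centred on their medians instead, the split was 14 positive and 19 negative, and the share of all genes with a positive difference moved from 47.1% to 31.2%.

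At the brightest probes, which stand for the genes, the data bound most of these differences fairly closely. There, differences ran from -0.28 (Cyp2e1) to 0.76 (Cyp3a18) and none reached 2-fold. At the same probes 2 genes reached 1.5-fold (Cyp2c11 and Cyp3a18), or 6.06% against 4.32% of all genes. Dimmer probes could give larger differences, such as -0.55 for Cyp2c7 and 0.67 for Cyp2b21, or smaller ones, such as 0.10 for Cyp2s1. On either side of the difference, the 95% confidence interval reached 0.32 log2 units at the median gene. The interval lay within 2-fold in either direction for 29 of 33 genes, or 87.9%, against 90.5% of all genes. At the brightest probes, the exceptions were Cyp2c11, Cyp2c12, Cyp3a9 and Cyp3a18, all known for sex-dependent expression in rat liver. Intervals also passed 2-fold at dimmer probes of Cyp2b2 (up to 1.117), Cyp2b21 (up to 1.196) and Cyp2c7 (down to -1.052). Cyp2b2, Cyp2b21 and Cyp2c7 are therefore not bounded within 2-fold at every probe.

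**Figure D1:**
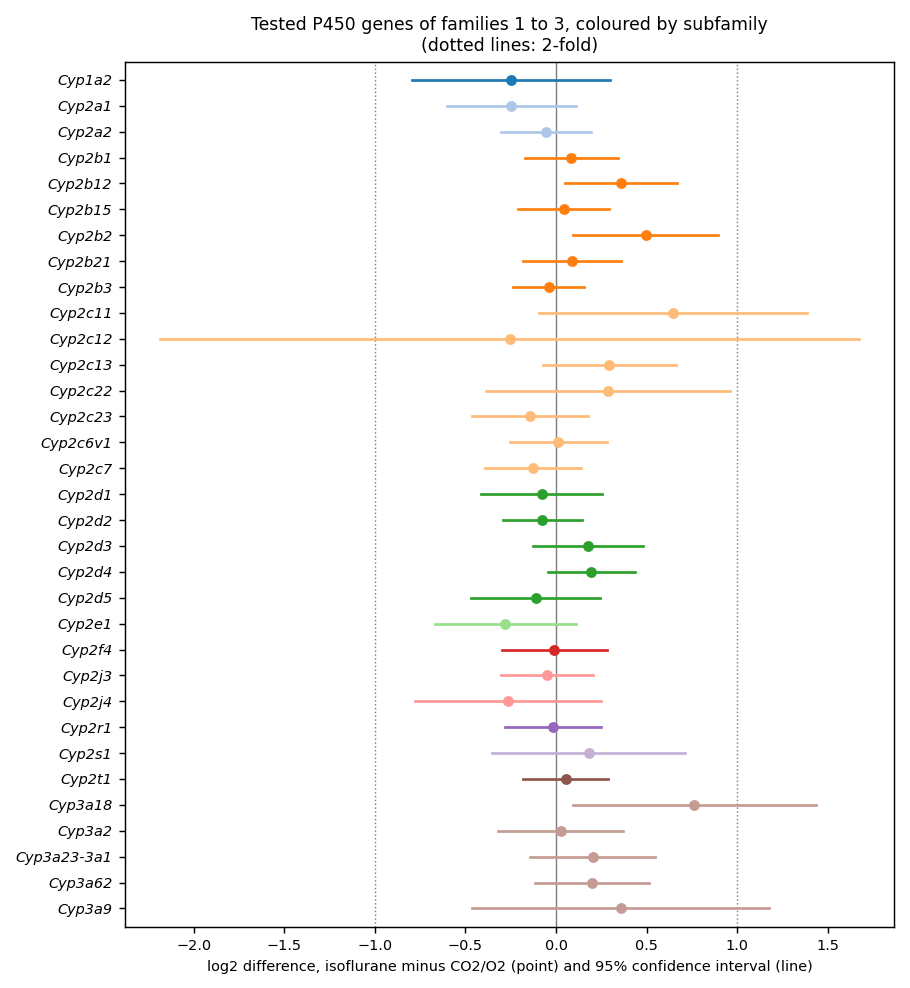
Difference between isoflurane and CO2/O2 rats in log2 units for the 33 tested P450 genes, ordered by subfamily; points are limma differences (n = 3 rats per group), colours mark subfamilies, dotted lines mark 2-fold and bars are 95% confidence intervals. Differences lie between -0.28 and 0.76, and the interval of Cyp2c12, from -2.19 to 1.68, is the widest.

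Family 1 was represented in these livers by Cyp1a2, the constitutive hepatic member that oxidises caffeine and arylamines. Cyp1a2 gave 5.38, 4.70 and 5.51 after CO2/O2 and 4.96, 5.10 and 4.79 after isoflurane, in the order of rats 1 to 3 that is kept throughout. CO2/O2 rat 2 was the lowest and the other CO2/O2 rats the highest, so the groups overlapped. The difference was -0.25 ± 0.225 (SE, limma adjusted p = 0.829), and the second Cyp1a2 probe gave -0.37. Without CO2/O2 rats 1, 2 and 3 in turn it was -0.15, -0.50 and -0.09. Cyp1a1 and Cyp1b1, the inducible members, could not be compared because their probes were not well above background on any array. The Ah receptor gene Ahr had a difference of -0.23.

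Subfamily 2b holds the classical phenobarbital-inducible P450s of rat liver, Cyp2b1 and Cyp2b2, whose upstream sequences are shown because the pair is nearly identical there. The stretches below are from RefSeq (GRCr8, forward strand), 5′ to 3′, with the differing bases in capitals. The Cyp2b1 stretch is chr1:90645919-90646118 and ends 1 base before the annotated start, and the Cyp2b2 stretch is chr1:90722064-90722263 and ends 18 bases before it.
Cyp2b1: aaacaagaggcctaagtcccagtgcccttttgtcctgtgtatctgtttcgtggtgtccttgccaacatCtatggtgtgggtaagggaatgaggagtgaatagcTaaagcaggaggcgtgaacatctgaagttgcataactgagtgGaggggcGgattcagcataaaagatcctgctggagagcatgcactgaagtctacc
Cyp2b2: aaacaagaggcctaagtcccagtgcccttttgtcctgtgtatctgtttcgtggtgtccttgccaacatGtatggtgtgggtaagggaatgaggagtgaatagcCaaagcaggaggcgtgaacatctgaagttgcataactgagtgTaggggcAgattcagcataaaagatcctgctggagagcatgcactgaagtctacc
Of 200 bases, 196 were identical (98.0%), and 4 differed. Transcripts of close paralogs can share array signal, and probe sequences were not used here, so the levels of the 2b genes are not fully separable.

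Cyp2b2 had the smallest p of the members when each was read at its brightest probe. That Cyp2b2 probe gave 5.28, 5.09 and 4.86 after CO2/O2 and 5.30, 5.75 and 5.67 after isoflurane. All isoflurane values lay above all CO2/O2 values, although isoflurane rat 1 and CO2/O2 rat 1 differed by little. The difference was 0.50 ± 0.165 (SE, limma adjusted p = 0.614, n = 3 rats per group), or 1.41-fold. All 5 Cyp2b2 probes had positive differences, from 0.19 to 0.63, but the groups overlapped at 3 of the 5. Isoflurane rats 2 and 3 lay on another row of the slide than the other 4 arrays, and with the row as a block the difference was 0.22. That value sets isoflurane rat 1 alone against the CO2/O2 rats.

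The other 2b genes had smaller differences at their brightest probes. Cyp2b12, known from sebaceous glands, gave 3.05, 2.80 and 2.77 after CO2/O2 and 3.03, 3.34 and 3.32 after isoflurane. As with Cyp2b2, isoflurane rats 2 and 3 were the highest, and isoflurane rat 1 lay within the CO2/O2 range. The difference was 0.36 ± 0.129 (SE, limma adjusted p = 0.628), or 0.16 with slide row as a block, and its other probe was not above background on any array. Cyp2b1 gave 4.20, 3.88 and 4.03 after CO2/O2 and 4.06, 4.15 and 4.15 after isoflurane. The isoflurane values lay inside the CO2/O2 range, with a difference of 0.08 ± 0.106 (limma adjusted p = 0.881). Cyp2b15 had a difference of 0.04 at its brightest probe and also at a dim one, and its other probe was not above background on any array. Cyp2b21 had 0.09 at its brightest probe and 0.67 at a dim one, where the groups did not overlap (limma adjusted p = 0.601). Cyp2b3, a constitutive liver form, had -0.04 and the smallest spread between rats of all members. The median over the 6 genes of the subfamily was 0.09, with 5 of 6 positive, and was 0.02 with slide row as a block and 0.22 when a gene's probes were averaged. Nr1i3, which encodes CAR, had a difference of 0.41 ± 0.268 and overlapping groups.

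**Figure D2:**
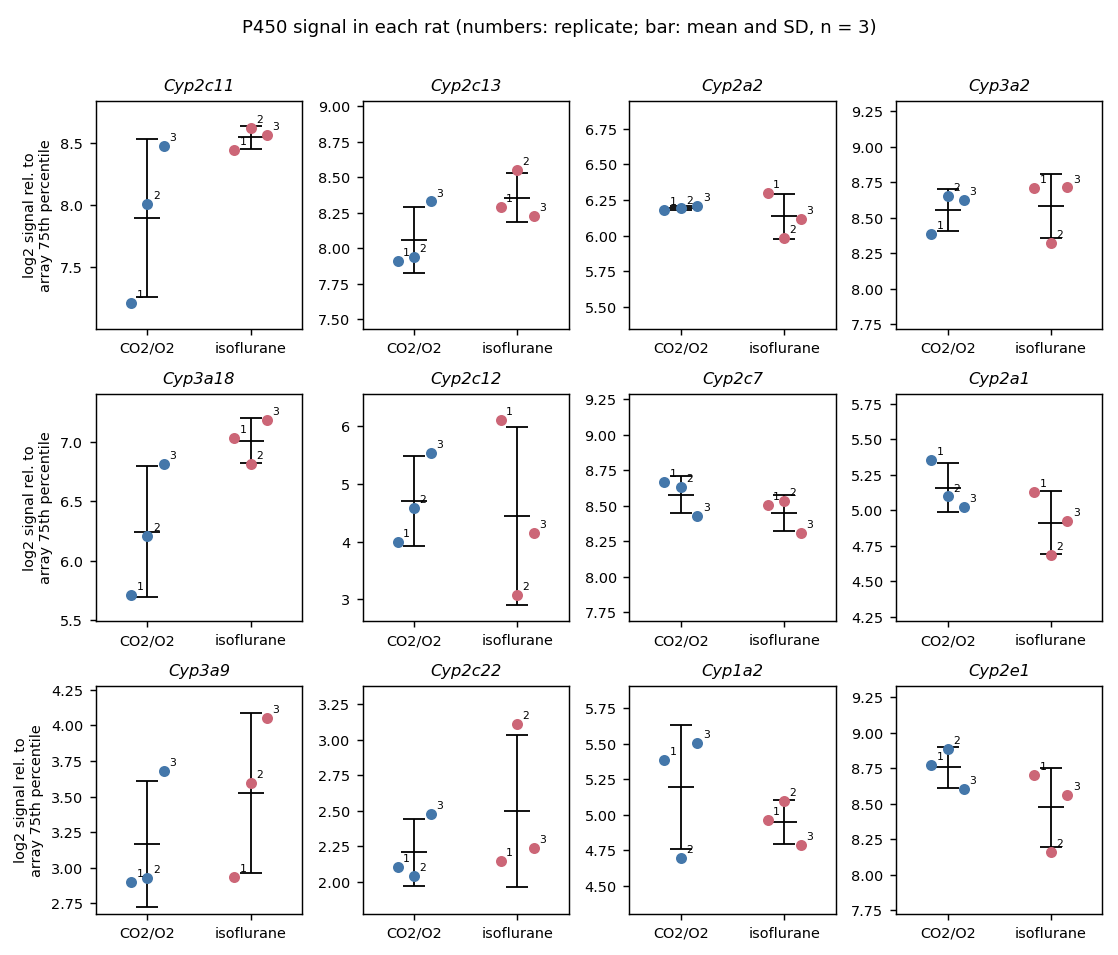
Level of selected P450 genes in every rat, as log2 of processed intensity relative to the array's 75th percentile; each numbered point is 1 rat, bars are the mean and SD (n = 3), and each gene has its own vertical axis. CO2/O2 rat 1 is the lowest rat for Cyp2c11 (7.22) and Cyp3a18 (5.71), and Cyp2c12 ranges from 3.07 to 6.10 among isoflurane rats.

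The P450s known for sex-dependent expression in rat liver belong to subfamilies 2c, 2a and 3a, and include both genes with the largest differences, Cyp3a18 and Cyp2c11. The upstream sequences of Cyp2c11, the main male form, Cyp2c12, the main female form, and Cyp3a18, another male form, are shown because results for these genes are given in full. They are from RefSeq (GRCr8), 5′ to 3′ on the gene's strand, and end 1 base before the annotated start. Capitals mark the TATA box letters TATAAA and the nuclear receptor half-sites AGGTCA and AGTTCA, read on either strand. Cyp2c11 is chr1:246175016-246175215 on the forward strand, Cyp2c12 is chr1:248677035-248677234 on the reverse strand, and Cyp3a18 is chr12:13994112-13994311 on the forward strand.
Cyp2c11: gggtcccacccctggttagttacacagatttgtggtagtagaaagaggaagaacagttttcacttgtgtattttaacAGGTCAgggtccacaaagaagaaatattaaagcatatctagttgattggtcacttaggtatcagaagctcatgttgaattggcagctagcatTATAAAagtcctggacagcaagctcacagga
Cyp2c12: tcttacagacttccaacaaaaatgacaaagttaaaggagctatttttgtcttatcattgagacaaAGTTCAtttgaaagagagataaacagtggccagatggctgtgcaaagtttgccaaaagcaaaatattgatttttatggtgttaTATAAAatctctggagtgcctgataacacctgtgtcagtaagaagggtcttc
Cyp3a18: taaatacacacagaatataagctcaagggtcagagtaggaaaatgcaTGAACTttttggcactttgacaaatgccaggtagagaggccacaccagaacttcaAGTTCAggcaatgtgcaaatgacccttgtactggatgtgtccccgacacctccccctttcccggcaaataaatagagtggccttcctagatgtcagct
Within 250 bases upstream, TATAAA was found for 13 of the 35 members with a sequence (37.1%), against 12.9% of all 33469 promoters. AGGTCA was found for 12 members (34.3% against 14.1%) and AGTTCA for 10 (28.6% against 12.2%). The STAT-type letters TTCNNNGAA were found for 2 members (5.71% against 7.67%), and GCGTG, the core of the Ah receptor element, for 5 (14.3% against 25.9%). A member was counted where any of its listed promoters matched, whereas the share over all promoters counts each promoter once. The member shares are therefore not counted like the shares beside them, and can be raised by this. Both strands were read, and a match describes letters only.

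Cyp2c11, a testosterone hydroxylase and the predominant P450 of adult male rat liver, gave 7.22, 8.01 and 8.48 after CO2/O2 and 8.44, 8.62 and 8.57 after isoflurane. The isoflurane rats lay close together, and CO2/O2 rat 3 lay among them while CO2/O2 rat 1 lay well below. The difference was 0.64 ± 0.305 (SE, limma adjusted p = 0.690), or 1.56-fold. It was 0.30 without CO2/O2 rat 1, a move of over 1.5 times, and 0.93 without CO2/O2 rat 3.

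Cyp3a18, a male-predominant steroid hydroxylase, gave 5.71, 6.21 and 6.81 after CO2/O2 and 7.03, 6.81 and 7.18 after isoflurane. The groups did not overlap, but CO2/O2 rat 3 and isoflurane rat 2 were level at this precision. The difference was 0.76 ± 0.277 (SE, limma adjusted p = 0.634), or 1.70-fold, the largest of any tested member. It was 0.50 without CO2/O2 rat 1 and 1.05 without CO2/O2 rat 3.

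Cyp2c12, the female-predominant steroid sulphate hydroxylase, was above background in all 6 males. It gave 3.99, 4.58 and 5.53 after CO2/O2 and 6.10, 3.07 and 4.15 after isoflurane. Both the highest and the lowest of the 6 rats were isoflurane rats, 8.15-fold apart. The difference was -0.26 ± 0.797 (SE, 95% confidence interval -2.19 to 1.68, limma adjusted p = 0.963). Its sign was not stable: leaving out single rats gave -1.09 to 0.43, and the slide row as a block gave 1.40.

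The other members known for male-predominant expression did not share 1 pattern. Cyp2c13 gave 7.91, 7.94 and 8.33 after CO2/O2 and 8.29, 8.55 and 8.22 after isoflurane, with a difference of 0.30 ± 0.152 and overlapping groups. Cyp2a2 gave 6.18, 6.19 and 6.20 after CO2/O2 and 6.30, 5.98 and 6.12 after isoflurane. The CO2/O2 rats were almost equal and lay inside the isoflurane range, with a difference of -0.06 ± 0.103. Cyp3a2, a testosterone 6β-hydroxylase, gave 8.39, 8.65 and 8.62 after CO2/O2 and 8.71, 8.32 and 8.71 after isoflurane. Its difference was 0.03 ± 0.143, and isoflurane rat 2 was the lowest of the 6. Cyp2c22 gave 2.11, 2.04 and 2.48 after CO2/O2 and 2.15, 3.11 and 2.24 after isoflurane. Its difference of 0.29 ± 0.278 was -0.02 without isoflurane rat 2 and -0.06 with slide row as a block.

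Members known for female-predominant expression include Cyp2c7, Cyp2a1 and Cyp3a9 beside Cyp2c12. Cyp2c7, a retinoic acid hydroxylase, gave 8.67, 8.63 and 8.43 after CO2/O2 and 8.51, 8.53 and 8.31 after isoflurane. All 6 Cyp2c7 probes had negative differences, from -0.13 at this brightest probe to -0.55, and on all 6 the highest rat was CO2/O2 rat 1 and the lowest isoflurane rat 3. The difference at the brightest probe was -0.13 ± 0.110 (limma adjusted p = 0.814), and the mean over the 6 probes gave -0.33. Cyp2a1, a testosterone 7α-hydroxylase, gave 5.35, 5.10 and 5.02 after CO2/O2 and 5.13, 4.69 and 4.93 after isoflurane. CO2/O2 rat 1 was again the highest, and the difference was -0.25 ± 0.148 (limma adjusted p = 0.740). It was -0.15 without CO2/O2 rat 1, -0.13 without isoflurane rat 2 and -0.03 with slide row as a block. Cyp3a9 gave 2.90, 2.92 and 3.68 after CO2/O2 and 2.93, 3.60 and 4.05 after isoflurane, with a difference of 0.36 ± 0.338 (limma adjusted p = 0.836). With the slide row as a block it was -0.24, and without single rats it was 0.10 to 0.66. CO2/O2 rat 1 did not hold 1 place among the sex-dependent genes. Of the male-predominant ones it was the lowest rat for Cyp2c11, Cyp2c13 and Cyp3a18 but not for Cyp2a2, Cyp3a2 or Cyp2c22. Of the female-predominant ones named here, it was the highest for Cyp2c7 and Cyp2a1 and the lowest for Cyp3a9. For Cyp2c12 it was below all rats but isoflurane rat 2. These genes were set side by side after their values were seen.

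The remaining 3a members were Cyp3a23-3a1, the form induced through PXR, and Cyp3a62. Cyp3a23-3a1 gave 6.30, 6.44 and 6.26 after CO2/O2 and 6.57, 6.77 and 6.27 after isoflurane, a difference of 0.20 ± 0.142 with overlapping groups. It was 0.09 without isoflurane rat 2 and 0.33 without isoflurane rat 3. Cyp3a62, known from intestine as well as liver, gave 1.44, 1.54 and 1.58 after CO2/O2 and 1.97, 1.55 and 1.63 after isoflurane. Isoflurane rat 1 was the highest, and the difference was 0.20 ± 0.131 (limma adjusted p = 0.760). It was 0.07 without isoflurane rat 1 and 0.45 with slide row as a block. All 5 tested 3a genes had positive differences, against 47.1% of all genes, with a median of 0.20, and 1 of 5 had an unadjusted p under 0.05, against 7.58%. The sign of Cyp3a2 was not stable, at -0.03 with median centring and -0.06 without CO2/O2 rat 1. Nr1i2, which encodes PXR, had a difference of -0.07.

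Cyp2e1, which oxidises isoflurane, gave 8.77, 8.89 and 8.61 after CO2/O2 and 8.70, 8.16 and 8.56 after isoflurane. Isoflurane rat 2 was the lowest, and isoflurane rat 1 lay within the CO2/O2 range. The difference was -0.28 ± 0.161 (SE, 95% confidence interval -0.67 to 0.11, limma adjusted p = 0.731). This was the most negative of the members at the brightest probes only. When a gene's probes were averaged, Cyp2c7 (-0.335), Cyp1a2 (-0.311) and Cyp2a1 (-0.286) were more negative than Cyp2e1 (-0.281). The Cyp2e1 difference was -0.13 without isoflurane rat 2 and -0.06 with slide row as a block. Cyp2e1 and Cyp1a2 are known from hepatocytes around the central vein, and 7 other genes of those cells, Glul and Oat among them, had a median difference of -0.11, with 5 of 7 negative. The 7 genes of periportal hepatocytes had similar values, with a median of -0.09 and 6 of 7 negative. The mean level of the pericentral genes was 0.60 to 0.67 in CO2/O2 rats and 0.41 to 0.63 in isoflurane rats, and their part in the Cyp2e1 value was not tested.

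The constitutive members of subfamilies 2c, 2d and 2j had differences in both directions. Cyp2c6v1 gave 8.08, 7.85 and 7.83 after CO2/O2 and 7.80, 7.98 and 8.03 after isoflurane, a difference of 0.01 ± 0.110. Its interval of -0.25 to 0.28 bounds the change in either direction. Cyp2c23, an arachidonic acid epoxygenase, gave 8.38 and 8.27 in CO2/O2 rats 2 and 3 and 8.32, 8.02 and 8.21 after isoflurane, with a difference of -0.15 ± 0.127. The spot of CO2/O2 rat 1 was marked as an outlier by the scanner software and left out of that fit. The difference was -0.06 without isoflurane rat 2 and -0.01 with slide row as a block.

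Cyp2d1, the debrisoquine hydroxylase, gave 8.50, 8.62 and 8.49 after CO2/O2 and 8.18, 8.64 and 8.55 after isoflurane. Isoflurane rat 1 was the lowest, and the difference was -0.08 ± 0.138. It was 0.06 without that rat and -0.36 with slide row as a block. Cyp2d4 gave 4.58, 4.82 and 4.73 after CO2/O2 and 4.99, 4.91 and 4.82 after isoflurane. Its groups did not overlap, by a narrow margin between CO2/O2 rat 2 and isoflurane rat 3, and the difference was 0.20 ± 0.099 (SE, limma adjusted p = 0.704). Cyp2d2, Cyp2d3 and Cyp2d5 had differences of -0.08, 0.18 and -0.11, and the median over the 5 genes was -0.08. That median was 0.06 without isoflurane rat 1 and -0.19 with slide row as a block.

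Cyp2j3, an epoxygenase of arachidonic acid, gave 4.57, 4.44 and 4.77 after CO2/O2 and 4.57, 4.52 and 4.54 after isoflurane, with a difference of -0.05 ± 0.105. Its 4 probes gave -0.15 to -0.01. Cyp2j4 had a difference of -0.27 and 3 probes between -0.34 and -0.17. The remaining members are single genes of their subfamilies. Cyp2f4, an enzyme of lung club cells, had -0.01 and was above background on all 6 arrays, whereas 3 of 4 club cell markers were above background on no array and the fourth, Scgb1a1, was at -3.58 to -3.28. Cyp2r1, an enzyme of vitamin D activation, had -0.02. Cyp2s1 and Cyp2t1 had 0.18 and 0.05.

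At the brightest probes, rats of one group differed widely for some members and hardly at all for others. Another probe of the same gene could give another SD within groups. For Cyp2c7 it was 0.13 at the brightest probe and 0.30 at a dimmer one, whereas for Cyp2s1 it was 0.32 and 0.13. The SD within groups had a median of 0.17 log2 units over the 33 genes, against 0.15 over all tested genes, and 19 of 33 lay above that all-gene median. It ran from 0.05 for Cyp2b3 to 1.22 for Cyp2c12, and only 0.716% of all genes had a larger SD than Cyp2c12. After Cyp2c12, the largest values belonged to Cyp3a9, Cyp2c11, Cyp2c22 and Cyp3a18, which together with it were the 5 members above the 90th percentile of all genes. All 5 are in subfamilies 2c and 3a, which hold 7 and 5 of the 33 tested genes. In the same subfamilies, Cyp2c6v1, Cyp2c7 and Cyp2c23 lay below the all-gene median at their brightest probes.

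**Figure D3:**
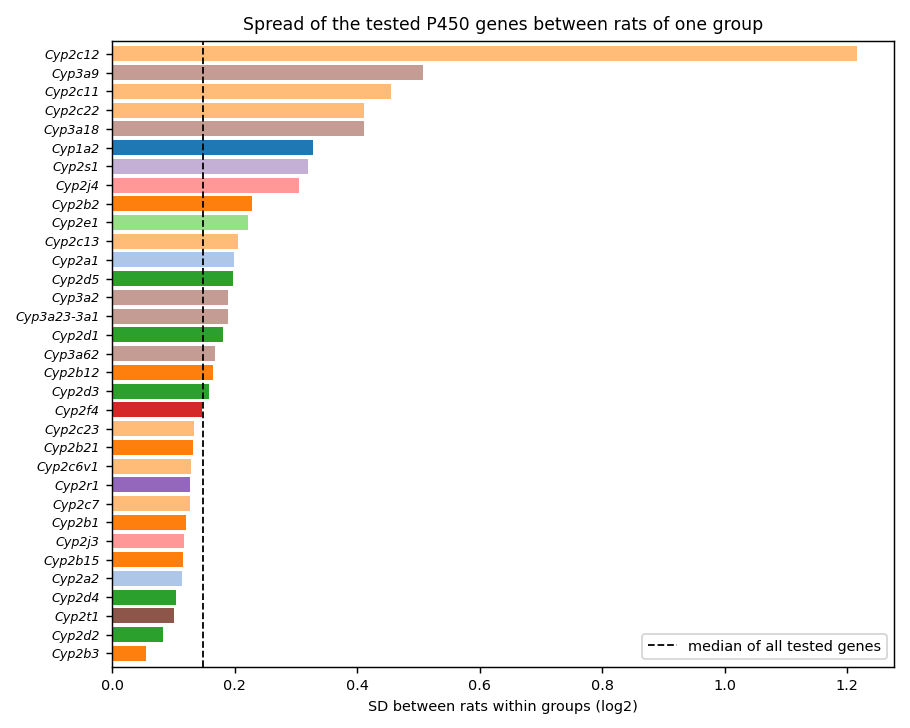
SD between rats of one group, in log2 units, at the brightest probe of each of the 33 tested P450 genes, coloured by subfamily. The dashed line is the median over all tested genes (0.15). Cyp2c12 stands apart at 1.22, and Cyp3a9, Cyp2c11, Cyp2c22 and Cyp3a18 follow.

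Probes of one gene mostly gave the same sign. Of 14 member genes with several tested probes, 13 had differences of 1 sign and 1, Cyp2b3, had both (-0.04 and 0.04). Sizes could still differ, and the gap between both Cyp2b21 probes, 0.58, was the largest in the set. Over probes, 8 of 57 had p under 0.05 before adjustment, against 7.55% of all probes, and 5 had groups that did not overlap, against 13.6%. The probe set of 1 gene shares its RNA, and so these counts are not independent.

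**Figure D4:**
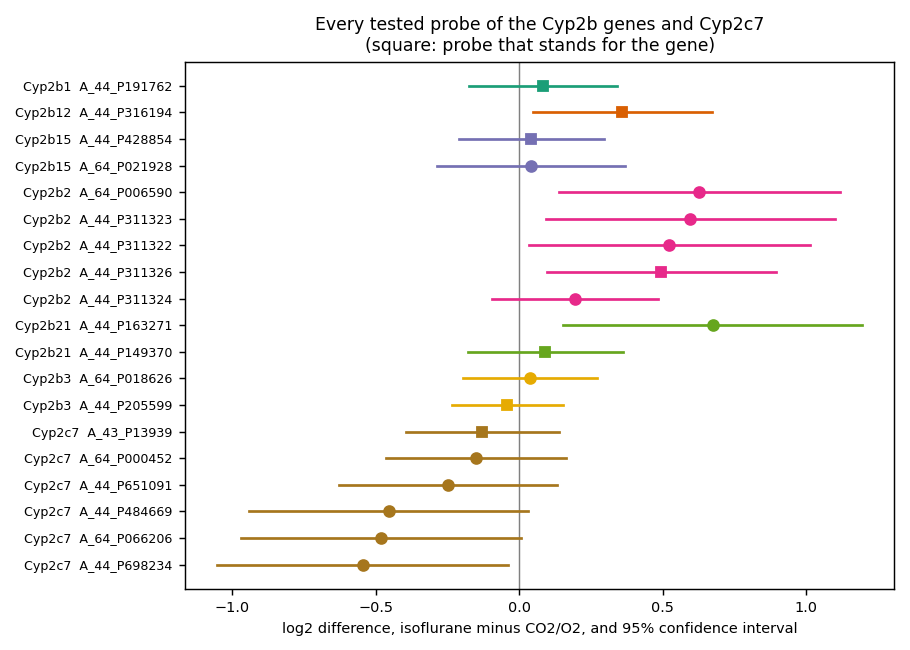
Log2 difference, isoflurane minus CO2/O2, at every tested probe of the Cyp2b genes and Cyp2c7; each mark is 1 probe with its 95% confidence interval (n = 3 rats per group), and squares are the brightest probes, which stand for the genes. The 6 Cyp2c7 probes lie between -0.55 and -0.13 and the 5 Cyp2b2 probes between 0.19 and 0.63.

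The genes that supply P450 enzymes with electrons and haem did not pass the test either. All 18 listed genes were tested, 0 reached the threshold in limma, 2 had an unadjusted p under 0.05 (7.58% of all genes did), the groups did not overlap for 4 (14.2% of all genes), and 7 differences were positive and 11 negative, with a median of -0.06. Pgrmc2, a haem-binding membrane protein, gave 6.0, 6.10 and 5.97 after CO2/O2 and 5.82, 5.68 and 5.56 after isoflurane. The groups did not overlap, and the difference was -0.33 ± 0.099 (SE, limma adjusted p = 0.588). Cyb5b, a cytochrome b5, had -0.31 ± 0.126 (SE, limma adjusted p = 0.660) at its brightest probe and 0.08 at the other. Blvra, a biliverdin reductase, had -0.18 ± 0.086.

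Among 26 listed regulators of P450 genes, 24 were on the array and 23 were tested. None passed the threshold in limma (0 of 23), 3 had an unadjusted p under 0.05 (7.58% of all genes did), the groups did not overlap for 5 (14.2% of all genes), and 11 differences were positive and 12 negative, with a median of -0.02. Ppara, the fatty acid-sensing nuclear receptor, gave 0.85, 1.18 and 1.60 after CO2/O2 and 1.75, 1.80 and 1.97 after isoflurane, with a difference of 0.63 ± 0.195 (SE, limma adjusted p = 0.597). Dbp, a clock-controlled transcription factor, gave 5.11, 4.83 and 5.31 after CO2/O2 and 6.11, 5.36 and 6.37 after isoflurane. Its difference was 0.86 ± 0.275 (SE, limma adjusted p = 0.601). Tef, of the same family of factors, had 0.37 ± 0.117 (SE, limma adjusted p = 0.601). In all 3 the isoflurane rats lay above every CO2/O2 rat. These 3 were named for the largest moderated t of the list, which favours groups that do not overlap. The 6.01% of all genes with this pattern were not chosen in that way and are no measure for them.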

How the data were processed

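Spot values were read from 6 scanner files. The deposited intensity values are background-corrected by Agilent Feature Extraction 10.7, per the submitters' processing notes and the file headers, and are not scaled between arrays. The deposited value table holds a linear ratio, the processed intensity over 1 number per array close to its 75th percentile, and served as an alternative. No source used here says how the authors chose that number.

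The 75th percentile of each array over 61657 non-control probes was subtracted from log2 intensity, and 177 spots marked as outliers were left out. A probe was tested where well above background on all 3 arrays of a group. limma 3.58.1 in R 4.3.3 (lmFit, eBayes) was fitted over all 34637 tested probes. A gene took the values of its tested probe with the highest mean. Each group holds separate rats, 3 per group, and this number limits the precision. The limma fit was also run on simulated arrays with independent normal noise and known changes of 2-fold or more. That simulation held no effect of slide row or of shared rats. It does not show whether differences under 2-fold, such as those of the members, would be found. Python 3.11.15, pandas 2.3.3 and Biopython 1.88 were also used.

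Accessions were matched without versions to RefSeq (GRCr8): 27460 probes matched 1 gene and 34197 none. The arrays' own coordinates use another build and are not printed. Upstream sequences of 35 of 38 members came from RefSeq. Protein sequences and probe sequences were not used here, so the planned comparison of proteins was not made.

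Values on every array are given for any member gene with a probe past the threshold, the 8 with the smallest unadjusted p, the 8 with the largest difference, the 6 with the largest spread and 21 well-known members, where tested. Of each other list, genes past the threshold and the 3 with the largest moderated t are named, and further genes were chosen after their values were seen. Members and lists were chosen with earlier results of these data known.

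Alternatives were normexp with an offset of 50 (on the median signal), quantile normalization, median centring, the deposited ratio table, other filters on dim probes, a block for the replicate number or the slide row, the trended robust form of eBayes, averaged probes per gene, and leaving out each array.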

Additional observations from a re-analysis of the deposited data

How the results depend on the processing

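No P450 gene passed an adjusted p of 0.05 in limma under any of the 16 alternatives, and of 22 named tested members 14 kept the sign of their difference under all of them. The count of members at an unadjusted p under 0.05, 3, was 1 with a replicate block and 1 to 3 when single arrays were left out, 1 of them without CO2/O2 rat 2 and also without isoflurane rat 2. The count whose groups do not overlap, 3, was 1 with median centring and 5 to 12 without single arrays, when 21.2% to 28.8% of all genes do not overlap: it was 8, 5 and 12 without CO2/O2 rats 1, 2 and 3 and 9, 5 and 5 without isoflurane rats 1, 2 and 3. The members' median difference, 0.0258, was -0.0334 with median centring, which moved the median of all genes from -0.01 to -0.07, and -0.0116 to 0.0926 without single arrays. The median of the redox and haem list, -0.06, was -0.0992 to 0.0109 without single arrays. The median of the regulators, -0.02, was 0.0505 with normexp, -0.0778 when centred on medians, 0.0274 when the slide row was a block and -0.0587 to 0.0207 without single arrays. The cause of these moves was not tested. Same-numbered rats deviated together with correlations of 0.11, 0.02 and 0.06. Only CO2/O2 rat 2 correlated better with another number, at 0.04 with isoflurane rat 3 against 0.02. Correlations this small, over 3 rats per group, cannot tell whether the replicate numbers pair the rats. The replicate block changed no adjusted call. Slide and scan time were the same for all arrays and could not serve as blocks. Groups of 3 were not tested for single outlying rats. Dim probes near background limit what can be said of Cyp1a1, Cyp1b1, Cyp2a3, Cyp2g1 and Cyp2j10.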

Other observations

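Several genes that serve or control the P450 system varied widely between rats, and are given here as values chosen after they were seen. Por, the electron donor of all microsomal P450 enzymes, gave 3.85, 3.65 and 3.83 after CO2/O2 and 3.45, 3.21 and 4.42 after isoflurane. Alas1, the rate-limiting enzyme of haem synthesis, gave 7.01, 7.21 and 6.89 after CO2/O2 and 6.43, 5.97 and 7.67 after isoflurane. For both genes isoflurane rat 2 was the lowest and isoflurane rat 3 the highest of the 6. Bcl6, a repressor known from sex-dependent liver expression, gave 0.97, 3.61 and 4.13 after CO2/O2 and 4.29, 1.42 and 4.92 after isoflurane. Onecut1, a liver factor known to act on Cyp2c12, gave 5.32, 4.0 and 3.39 after CO2/O2 and 3.00, 3.81 and 1.64 after isoflurane, with CO2/O2 rat 1 the highest and isoflurane rat 3 the lowest. Its difference of -1.42 ± 0.685 (SE, limma adjusted p = 0.691) was the largest of the regulator list, and the groups overlapped. None of these 4 genes passed the test in limma.

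Extremes were spread unevenly over the rats. Of 32 P450 genes with a value on every array, CO2/O2 rat 1 was the highest for 10 (31.2%) and isoflurane rat 2 also for 10, against 14.1% and 15.3% of all tested genes. CO2/O2 rat 2 was the lowest for 9 members (28.1%), against 12.7% of all tested genes. Isoflurane rat 3 was the lowest for 2 members (6.25%), against 22.8% of all tested genes. These rats were picked after the counts were seen. Close paralogs can share signal, so the members are not independent of each other.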
